A study of Mus musculus with 6 samples.

Results

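The genes described here are Khdrbs1 and 9 neuronal splicing regulators, Khdrbs2, Khdrbs3, Rbfox1, Rbfox2, Nova1, Ptbp2, Elavl2, Elavl3 and Elavl4. They were found as all probe sets whose gene symbol on the array is one of these names, which gave 32 of 45037 probe sets and covered all 10 genes, of 18193 named on the array. Khdrbs1 was chosen because 1 of its probe sets was far lower in the double-knockout-labelled arrays, and the others as its family or as regulators of neuronal splicing. The group differences of the 10 genes are therefore given as descriptions. A fit over all tested probe sets includes them and its adjusted p is printed, but nothing is concluded from it for these genes.

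RNA of mouse cerebral cortex was measured on 6 Affymetrix expression arrays. The descriptions place 3 arrays in an Egr1/Egr3 double knockout group, in which the genes of the transcription factors Egr1 and Egr3 are targeted, and 3 in a wild type group. The labels give no strain, sex, age, protocol or targeting design and do not say that the arrays came from separate animals, so any p-value measures only the spread between these arrays. The title of double knockout replicate 1 names an extraction and no genotype, as all 3 wild type titles do, whereas the titles of replicates 2 and 3 name the knockout.

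KHDRBS1, also called Sam68, and its relatives KHDRBS2 and KHDRBS3 bind RNA through a KH domain and choose between alternative exons, among them an exon of the neurexins, which connect synapses. RBFOX proteins bind GCAUG elements near exons, NOVA proteins bind YCAY clusters, PTBP2 represses exons until neurons mature, and the neuronal ELAVL (Hu) proteins bind U-rich elements and act on splicing, stability and translation. Many such genes make several transcripts themselves, and a probe set reads only those transcripts that carry its probes. On this platform the ending _a marks probes shared by transcripts of a gene, and _s and _x mark probes that may also bind transcripts of other genes.

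Egr3 read 339, 369.9 and 507 signal units in the double-knockout-labelled arrays (replicates 1 to 3), against 1189, 2670 and 924 in wild type. Egr1 read 2116, 2647 and 2657 in the double-knockout-labelled arrays, against 1247, 2054 and 1430 in wild type, which goes against the label. The sources used here give neither the positions of the Egr1 probes nor that of the deletion, so this group is called by its label throughout. Double knockout replicate 2 read 3140 for Xist, and the other 5 arrays at most 42.5. Eif2s3y, a gene of the Y chromosome, read 0.63 in that replicate and 383 to 609 in the other 5 arrays. By these 2 genes double knockout replicate 2 alone is female, so sex is not balanced between the groups. In wild type replicate 1 the spiked control RNAs read 0.43 of the median array. Array medians lay between 36.2 and 39.5 signal units. Gapdh 3'/5' control ratios, a sign of RNA quality, were 0.922, 0.9497 and 0.881 in the double-knockout-labelled arrays and 0.842, 0.806 and 0.873 in wild type. These ratios do not overlap, while those of Actb do (1.89, 1.68 and 1.75 in the double-knockout-labelled arrays, 1.58, 1.67 and 1.95 in wild type).

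Khdrbs1 gave the largest group difference of the 10 genes, and it came from 1 of 7 probe sets. That probe set, 1438462_x_at, read 137, 108 and 134 signal units in the double-knockout-labelled arrays, against 399, 778 and 679 in wild type. The means were 126 ± 16.3 in the double-knockout-labelled arrays and 619 ± 197 in wild type (SD, n = 3 each), so the wild type mean was 4.89 times the other. The lowest wild type array, replicate 1, still read well above all double-knockout-labelled arrays. On the log2(signal + 16) scale used for all differences below, double knockout label minus wild type, this was -2.11 (SE 0.22). In bulk tissue, fewer cells of a type and less RNA per cell cannot be told apart.

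**Figure D1:**
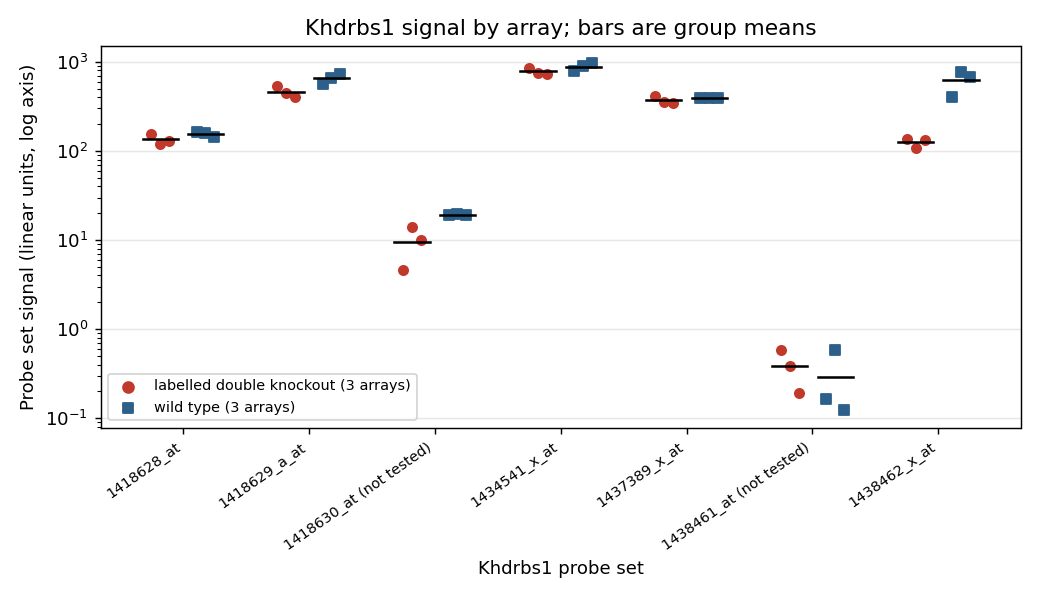
Signal of the 7 Khdrbs1 probe sets (x axis) in each array on a log axis (y axis), with circles for the 3 double-knockout-labelled arrays, squares for the 3 wild type arrays and bars for group means. At 1438462_x_at the double-knockout-labelled arrays lie between 108 and 137 and the wild type arrays between 399 and 778, the groups are also separate at 1418629_a_at (402 to 539 in the double-knockout-labelled arrays, 566 to 724 in wild type), and they overlap at the other 3 tested probe sets.

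The other tested Khdrbs1 probe sets were all lower too, by much less. Probe set 1418629_a_at read 539, 445 and 402 in the double-knockout-labelled arrays, against 566, 667 and 724 in wild type. Its groups do not overlap, though double knockout replicate 1 lies next to wild type replicate 1, and its log2 difference was -0.49 (SE 0.13). Probe set 1434541_x_at, the brightest, read 853, 758 and 739.6 in the double-knockout-labelled arrays, against 799, 893 and 964 in wild type, a difference of -0.17 (SE 0.11). Here double knockout replicate 1 lies above wild type replicate 1, so the groups overlap. Probe set 1437389_x_at read 415, 357 and 347 in the double-knockout-labelled arrays, against 388, 391 and 389 in wild type, and differed by -0.06 (SE 0.11). Probe set 1418628_at read 154, 121 and 129 in the double-knockout-labelled arrays, against 165, 157 and 145 in wild type, and differed by -0.19 (SE 0.13). Both overlap between the groups. Double knockout replicate 1 was the highest of its group on all 5 tested probe sets.

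The remaining 2 Khdrbs1 probe sets were too dim to be tested, since testing required a mean log2 signal above 5.72, the median of all probe sets. Probe set 1418630_at read 4.64, 14.0 and 10.1 in the double-knockout-labelled arrays, against 18.9, 19.6 and 19.0 in wild type. Probe set 1438461_at read under 1 in all 6 arrays, between 0.190 and 0.589 in the double-knockout-labelled arrays and between 0.123 and 0.583 in wild type. The platform table gives it the same source sequence as 1438462_x_at. Thus of 2 probe sets drawn from the same sequence, 1 carried the largest Khdrbs1 difference and the other gave almost no signal in any array. The probe sets 1418628_at, 1418629_a_at and 1418630_at likewise share a source sequence. Endings do not sort the differences, because of 3 probe sets ending in _x_at 1 stood at -2.11 and 2 lay between -0.17 and -0.06.

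Within each array, 1438462_x_at was set against the mean log2 signal of the other 4 tested Khdrbs1 probe sets. This log2 ratio was -1.50, -1.57 and -1.26 in the double-knockout-labelled arrays, against -0.06, 0.80 and 0.58 in wild type. The ratio was lower in all 3 double-knockout-labelled arrays than in any wild type array, and wild type replicate 1 lay lowest of its group. This follows from the value by which Khdrbs1 was chosen and is a description. Probes of 1438462_x_at may also bind transcripts of other genes, so the ratio compares probe sets and the source of its signal was not tested. The difference of 1438462_x_at minus the median difference of the other tested Khdrbs1 probe sets was -1.93. The Gapdh ratio given above moves with the groups as well, and its part in this gap between probe sets was not tested. Deviations from the group means correlated above 0 in 9 of 10 pairs of probe sets (median Pearson's r 0.62, from -0.07 to 0.97). For 1438462_x_at the r was -0.07 with 1418628_at, 0.18 with 1437389_x_at, 0.59 with 1418629_a_at and 0.69 with 1434541_x_at. These are descriptions over 6 arrays that the probe sets share.

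The difference at 1438462_x_at was past the threshold of the limma fit over all tested probe sets (an adjusted p under 0.05), the value by which Khdrbs1 was chosen. In that fit 229 of 22518 probe sets passed, or 1.02% in either direction and 0.591% lower in the double-knockout-labelled arrays. Of the 28 tested probe sets of the 10 genes 1 passed, lower, and none passed in the higher direction, and nothing is read from that count. The count of 229 became 143, 53 and 34 without double knockout replicates 1, 2 and 3 and 97 without wild type replicate 1. Over 16 alternatives the difference at 1438462_x_at lay between -2.39 and -1.80, and with no filter on dim probe sets it was not past the threshold.

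The tested probe sets with patterns most like 1438462_x_at over the 6 arrays were those of Pno1, a ribosome assembly factor (Pearson's r 0.999), Dzip1, a zinc finger protein of cilia (0.997), and Jph3, a junctophilin of neurons (0.995). Ppp6c, a phosphatase subunit, and Tlcd4 and B230216N24Rik followed with r of 0.992 each. Their log2 differences were far smaller, between -0.71 and -0.30. Tlcd4 read 312, 293 and 301 in the double-knockout-labelled arrays, against 412, 576 and 538 in wild type, and was the single probe set of the 6 that passed (log2 -0.71, limma adjusted p = 0.0407). Other probe sets followed the bright 1434541_x_at, namely those of Prr14l, Atox1, a copper chaperone, Ccnc, a cyclin, Brk1, an actin regulator, Canx, a chaperone, and Ints8, with r of 0.987 to 0.997. Each r spans both groups and so carries the group difference. The 6 probe sets like 1438462_x_at were thus picked through that difference, and nothing is concluded from the adjusted p of Tlcd4.

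The close relatives of Khdrbs1 gave small positive differences, neither past the threshold. Khdrbs3, which is mainly neuronal, had 1 probe set, 1453317_a_at, which read 1082, 1131 and 1140.5 in the double-knockout-labelled arrays, against 1048, 1214 and 1082 in wild type. Its groups overlap widely and its log2 difference was 0.01 (SE 0.10). Khdrbs2, with the probe set 1422117_s_at, read 55.9, 93.2 and 67.9 in the double-knockout-labelled arrays, against 68.6, 55.4 and 52.9 in wild type, a difference of 0.22 (SE 0.19). Double knockout replicate 2 alone stood above all wild type arrays. With 1 probe set a gene, agreement between probe sets could not be examined.

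Rbfox1 and Rbfox2 lay close to wild type on nearly all probe sets. The brightest Rbfox1 probe set, 1418314_a_at, read 2033, 2511 and 2161 in the double-knockout-labelled arrays, against 2178, 2089 and 2449 in wild type, a log2 difference of -0.00495 (SE 0.11). Probe set 1438217_at read 470.5, 641 and 617 in the double-knockout-labelled arrays, against 626, 549.5 and 511 in wild type, and differed by 0.03 (SE 0.14). Both overlap between the groups. Rbfox1 probe set 1455358_at stood apart from them, at 1534, 1434 and 1553 in the double-knockout-labelled arrays, against 1686, 1877 and 1674 in wild type. Its groups do not overlap, and its difference was -0.21 (SE 0.10). Deviations from the group means correlated above 0 in 1 of 3 pairs of tested Rbfox1 probe sets (r from -0.78 to 0.36). The remaining Rbfox1 probe set, 1447735_x_at, read 23.4, 39.1 and 41.3 in the double-knockout-labelled arrays, against 45.7, 35.3 and 29.4 in wild type, and was not tested. It lay just outside the filter with a mean log2 signal of 5.68, and Nova1 1452245_at just inside with 5.81.

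All 4 Rbfox2 probe sets were tested and overlapped between the groups. The brightest, 1418245_a_at, read 304, 302 and 363 in the double-knockout-labelled arrays, against 338, 347 and 325 in wild type, a log2 difference of -0.06 (SE 0.11). Probe set 1434938_at differed by -0.03, 1418247_s_at by 0.0024 and 1418246_at by 0.07, and the last varied most, between 28.5 and 79.3 among the wild type arrays alone.

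Nova1 and Ptbp2 each had 2 probe sets whose differences pointed opposite ways. Nova1 1426938_at read 200.2, 252 and 264 in the double-knockout-labelled arrays, against 265, 318 and 227 in wild type, a log2 difference of -0.16 (SE 0.15). Nova1 1452245_at read 40.6, 42.7 and 45.2 in the double-knockout-labelled arrays, against 42.8, 33.3 and 37.9 in wild type, a difference of 0.13 (SE 0.16). Ptbp2 1423470_at read 1049, 1051 and 1099 in the double-knockout-labelled arrays, against 855, 958 and 1086 in wild type, a difference of 0.15 (SE 0.11). Ptbp2 1423471_at read 183, 229.6 and 198 in the double-knockout-labelled arrays, against 199.6, 247 and 276 in wild type, a difference of -0.22 (SE 0.14). All 4 overlap between the groups. The paired probe sets of each gene share a source sequence. The deviations of the Ptbp2 pair from the group means went together (r 0.76), whereas those of the Nova1 pair did not (r -0.14).

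Egr factors bind GC-rich elements, of which GCGTGGGCG and GCGGGGGCG are common forms, so these and the relaxed GCGNGGGCG were searched on both strands of RefSeq promoters (GRCm38.p6, from 250 bases before to 50 after the gene start). The table held 16 promoters of 7 of the 10 genes, with no entry for Khdrbs1, Khdrbs3 and Rbfox2. None of the 16 held GCGTGGGCG, found in 0.612% of all 32851 promoters, or GCGGGGGCG, found in 2.91%. The relaxed form, which includes the other 2, was found in 5.55% of all promoters and in the promoter of Ptbp2. The 250 bases before the Ptbp2 start, on the minus strand at chr3:119783389-119783638, are shown with their single match in capitals, because no other promoter of these genes held the form. The whole Ptbp2 window of 300 bases held 2 matches. The match shown begins 83 bases before the start and is a description of letters, not of binding.
Ptbp2: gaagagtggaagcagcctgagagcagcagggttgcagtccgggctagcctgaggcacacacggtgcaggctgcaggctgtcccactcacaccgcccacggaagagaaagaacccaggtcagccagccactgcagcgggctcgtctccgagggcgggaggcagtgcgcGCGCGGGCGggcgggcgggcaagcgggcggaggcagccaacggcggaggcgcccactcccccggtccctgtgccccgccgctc

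Elavl2 and Elavl4, which encode the neuronal Hu proteins HuB and HuD, were lower on every tested probe set, by small amounts. Elavl2 1421881_a_at read 368, 309 and 366 in the double-knockout-labelled arrays, against 428, 487 and 396 in wild type, a log2 difference of -0.32 (SE 0.12). Its groups do not overlap. Elavl2 1421882_a_at read 978, 805 and 972 in the double-knockout-labelled arrays, against 878, 1280 and 1241 in wild type, a difference of -0.28 (SE 0.15). Elavl2 1421883_at read 866, 855 and 932 in the double-knockout-labelled arrays, against 812, 1103 and 941 in wild type, a difference of -0.09 (SE 0.12). Wild type replicate 1 lay within the range of the double-knockout-labelled arrays in 1421882_a_at and below it in 1421883_at, so both overlap. A dimmer probe set, 1454454_at, differed by -0.23 (SE 0.18), and 1433052_at, at 2.41 to 18.1 over all arrays, was not tested. Deviations from the group means correlated above 0 in only 3 of 6 pairs of tested Elavl2 probe sets (r from -0.86 to 0.83). Those of 1454454_at went against 1421882_a_at (r -0.86) and 1421883_at (r -0.68).

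**Figure D2:**
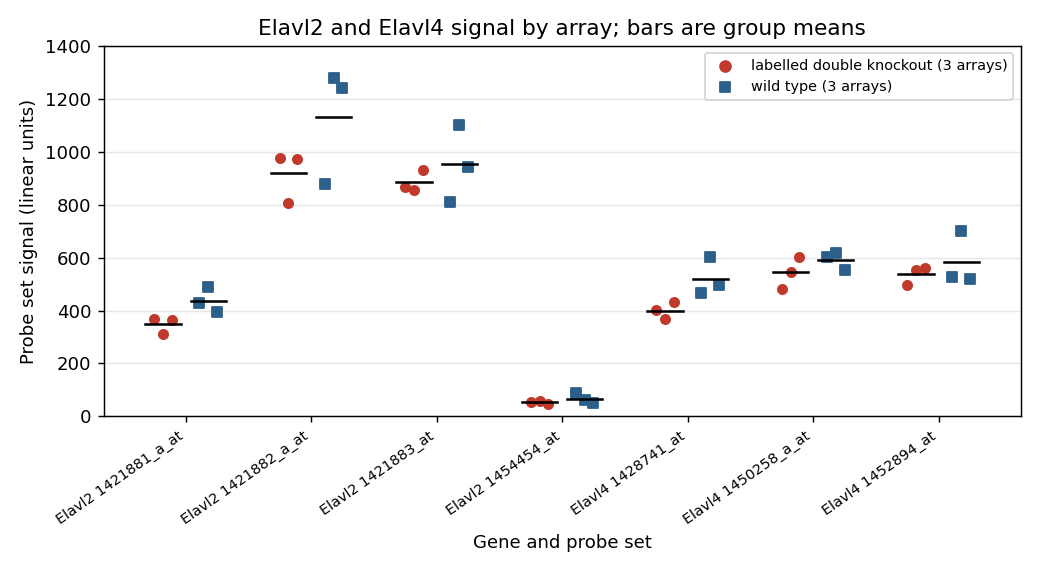
Signal of the 7 tested Elavl2 and Elavl4 probe sets (x axis) in each array on a linear axis (y axis), with circles for the 3 double-knockout-labelled arrays, squares for the 3 wild type arrays and bars for group means. Group means are lower in the double-knockout-labelled arrays throughout, and the groups are separate only at Elavl2 1421881_a_at and Elavl4 1428741_at.

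Elavl4 1428741_at read 401, 367 and 430.2 in the double-knockout-labelled arrays, against 465, 601 and 496 in wild type. These groups do not overlap, and the difference of -0.36 (SE 0.12) was the largest of the Hu genes. Elavl4 1452894_at, from the same source sequence, read 497, 551 and 560.0 in the double-knockout-labelled arrays, against 527, 702 and 519 in wild type, a difference of -0.10 (SE 0.13). Elavl4 1450258_a_at read 482, 547 and 602 in the double-knockout-labelled arrays, against 601, 617 and 552 in wild type, a difference of -0.12 (SE 0.11). Both overlap between the groups. Deviations of the Elavl4 probe sets from the group means correlated above 0 in 3 of 3 pairs (r from 0.37 to 0.78).

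Elavl3, encoding HuC, showed no common direction. Elavl3 1435871_at read 894, 657 and 748 in the double-knockout-labelled arrays, against 847, 729.8 and 783 in wild type, a log2 difference of -0.05 (SE 0.13). The other probe sets, 1452524_a_at and 1455484_at, differed by 0.06 (SE 0.11) and 0.04 (SE 0.12). The groups overlap on all 3, and their deviations from the group means went together (r 0.56 to 0.65).

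**Figure D3:**
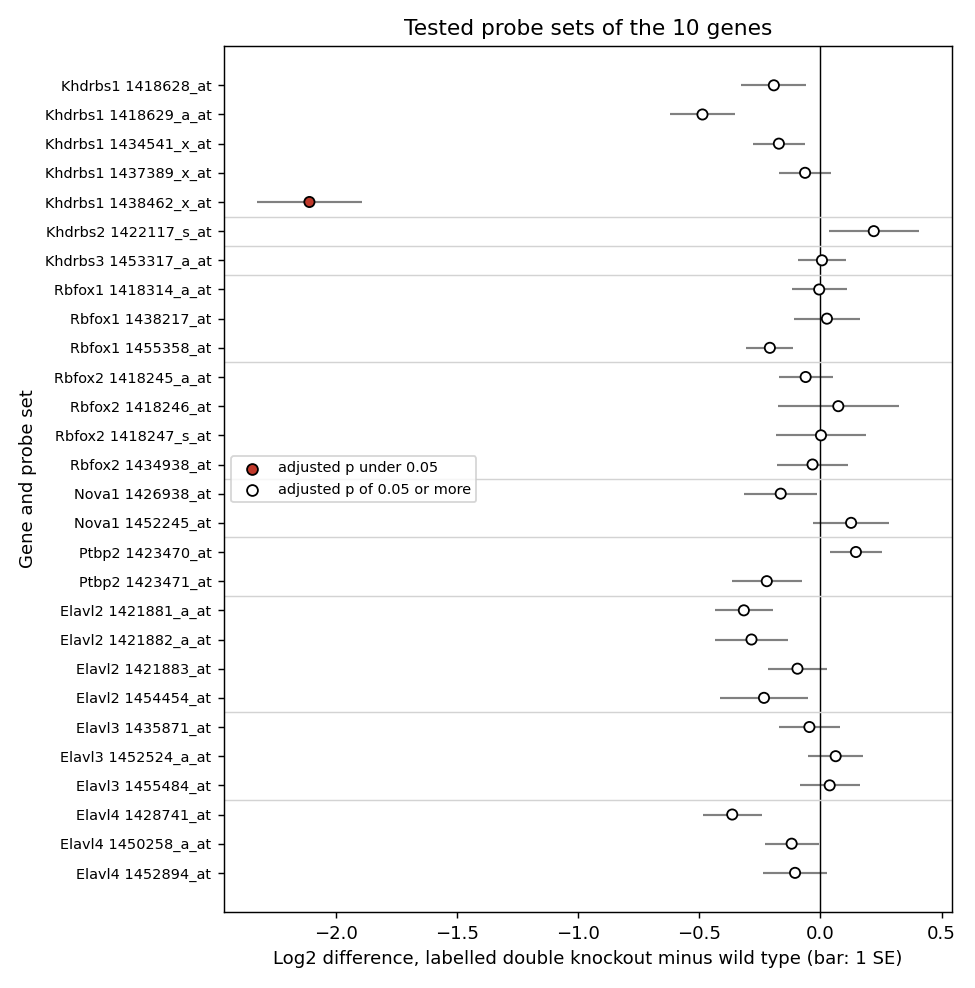
Log2 difference, double knockout label minus wild type (x axis), of the 28 tested probe sets of the 10 genes (y axis, grouped by gene), with bars of 1 SE. Khdrbs1 1438462_x_at (filled, -2.11) stands alone, and the other 27 (open) lie between -0.49 and 0.22.

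Over the 10 genes, 19 of 28 tested probe sets were lower, or 67.9% against 48.4% of all tested probe sets. The 19 include all 5 of Khdrbs1, which was chosen for a low value, 4 of Elavl2 and 3 of Elavl4. Probe sets of a gene are not separate members, so nothing is read from this share or from the median. The median log2 difference of the 28 was -0.08, against 0.01 for all tested probe sets. With 1 array left out it lay between -0.13 (double knockout replicate 3 omitted) and -0.05 (replicate 1 of that group omitted). Groups did not overlap for 5 of the 28 (17.9%), against 22.3% of all tested probe sets. The median size of a difference, regardless of sign, was 0.12 for the 28 and 0.15 for all tested. Besides 1438462_x_at, adjusted p in the limma fit ran from 0.125 to 0.997. Of 8 genes with at least 2 tested probe sets, Khdrbs1, Elavl2 and Elavl4 had all of them on the same side of 0, and some of these probe sets share a source sequence. The sign of 11 probe sets, none differing by more than 0.10 in size, turned in at least 1 alternative, among them 1 each of Elavl2 (1421883_at) and Elavl4 (1452894_at), all 3 of Elavl3 and that of Khdrbs3. The residual SD within groups had a median of 0.16 on the log2 scale for the 28 and 0.17 for all tested, and was 0.37 for 1438462_x_at.

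Other splicing genes were examined as 5 lists with 109 genes, of which 99 had 290 tested probe sets outside the 10 genes. Of these 3 passed, or 1.03% against 1.02% of all tested probe sets, 1 higher and 2 lower (0.426% and 0.591% of all tested), and their median log2 difference was 0.02. Each was 1 probe set of a gene whose other probe sets did not pass, as in Khdrbs1. Tial1, an RNA-binding protein of stress granules that promotes exon inclusion, was higher at 1455676_x_at, with 271, 331 and 271 in the double-knockout-labelled arrays, against 149, 148 and 172 in wild type (log2 0.83, SE 0.13, limma adjusted p = 0.0191). Tial1 1426352_s_at read 49.2, 58.3 and 13.5 in the double-knockout-labelled arrays, against 109, 131 and 114 in wild type, and did not pass (log2 -1.36, SE 0.30, limma adjusted p = 0.0666). The Tial1 groups were thus separate in opposite directions on these 2 probe sets, while the other 3 lay between -0.21 and 0.12.

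Hnrnpr, an hnRNP protein, fell at 1429232_at, with 31.0, 21.6 and 31.7 in the double-knockout-labelled arrays, against 79.3, 66.6 and 66.1 in wild type (log2 -0.98, SE 0.17, limma adjusted p = 0.0307). All its double-knockout-labelled values lie below 36.6, the signal at the filter, so it was tested only through its wild type signal. Nothing is concluded from its adjusted p. With no filter the Hnrnpr, Tial1 and Srrm1 calls were all lost (limma adjusted p = 0.149, 0.105 and 0.141). Hnrnpr 1438807_at read 169, 132 and 114 in the double-knockout-labelled arrays, against 74.1, 84.1 and 74.5 in wild type (log2 0.71, SE 0.16, limma adjusted p = 0.0725). The other 3 tested Hnrnpr probe sets, the brightest among them, differed by -0.16 to 0.15. Srrm1, a coactivator of splicing, fell at 1420935_a_at, with 68.7, 60.2 and 41.2 in the double-knockout-labelled arrays, against 129, 126 and 124 in wild type (log2 -0.99, SE 0.17, limma adjusted p = 0.0307). Its other 3 tested probe sets differed by -0.07 to 0.26. The count of 3 became 0 without wild type replicate 1 and without double knockout replicate 2 or 3, and 5 without wild type replicate 2. The Tial1 call was lost when wild type replicate 1, or double knockout replicate 2 or 3, was left out (limma adjusted p = 0.0647, 0.0963 and 0.0797). The Srrm1 call was lost without wild type replicates 1 and 3 and double knockout replicates 2 and 3 (limma adjusted p = 0.0826, 0.0598, 0.102 and 0.104). The Hnrnpr call was lost without wild type replicates 1 and 3 and double knockout replicates 1, 2 and 3 (limma adjusted p = 0.0874, 0.0590, 0.0576, 0.126 and 0.0898).

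**Figure D4:**
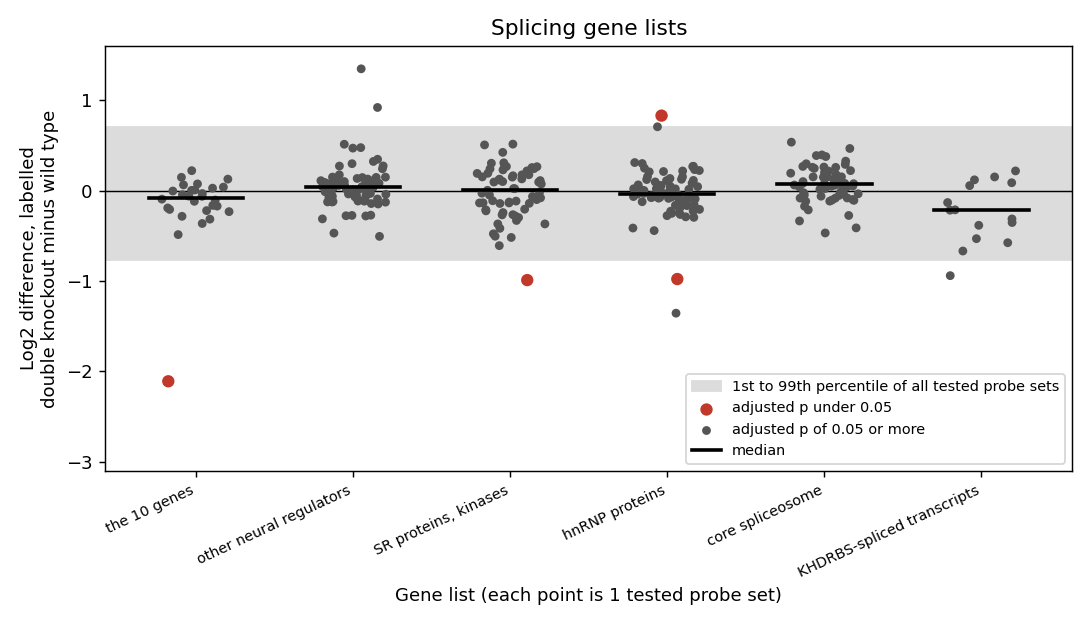
Log2 difference, double knockout label minus wild type (y axis), of each tested probe set of the 10 genes and of the 5 other lists (x axis), with medians as bars and the 1st to 99th percentile of all tested probe sets shaded. The probe sets past the threshold (large points) are those of Khdrbs1, Srrm1, Tial1 and Hnrnpr, and the medians of the 6 columns lie between -0.22 and 0.07.

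By list, the median log2 difference was 0.04 for 73 probe sets of other neural regulators, 0.0032 for 63 of SR proteins and their kinases, -0.04 for 79 of hnRNP proteins and 0.07 for 60 of core spliceosome subunits. No probe set passed among the neural regulators, the core spliceosome or the transcripts reported as spliced under KHDRBS proteins. Of the neural regulators, Msi2, a Musashi protein, differed by 1.35 at 1435521_at (SE 0.38, limma adjusted p = 0.126). That probe set read 233, 141 and 163 in the double-knockout-labelled arrays, against 35.9, 140 and 36.7 in wild type. Wild type replicate 2 thus lay next to double knockout replicate 2. The other 3 tested Msi2 probe sets differed by -0.06 to 0.02. Rbm39 differed by 0.47 at 1438397_a_at (limma adjusted p = 0.115), and its other 11 tested probe sets lay between -0.31 and 0.92, none past the threshold. Of the spliceosome subunits, Snrpb differed by 0.39 and 0.38 on its 2 probe sets (limma adjusted p = 0.0903 and 0.154), and Prpf31 by -0.47 on 1 and 0.15 on the other (limma adjusted p = 0.123 and 0.627).

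Of the 6 genes with probe sets among the transcripts reported as spliced under KHDRBS proteins, 10 of 15 probe sets were lower, or 66.7% against 48.4% of all tested, with a median log2 difference of -0.22 against 0.01. Of these 10, 5 belong to Nrxn3 and 3 to Ccnd1. By the brightest probe set of each gene, 3 genes were lower and 3 higher, with a median of -0.04. Ccnd1, the cell cycle gene encoding cyclin D1, read 127, 110.4 and 136 at 1448698_at in the double-knockout-labelled arrays, against 232, 361 and 191 in wild type (log2 -0.94, SE 0.20, limma adjusted p = 0.0624). Its other probe sets differed by -0.67 and -0.58 (limma adjusted p = 0.0677 and 0.312). Nrxn3, a neurexin, read 1088, 1075 and 1056 at 1433788_at in the double-knockout-labelled arrays, against 1359, 1222 and 1439 in wild type (log2 -0.31, SE 0.10, limma adjusted p = 0.162). All 5 Nrxn3 probe sets lay between -0.53 and -0.21, and none passed. These arrays give levels of probe sets and no exon inclusion.

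The probe sets of Khdrbs1 disagreed more than those of nearly all genes. Among 2096 genes with at least 3 tested probe sets, the highest minus the lowest log2 difference had a median of 0.29 and was 2.05 for Khdrbs1, the third largest. The same range was 0.26 for Elavl4, 0.24 for Rbfox1, 0.22 for Elavl2, 0.13 for Rbfox2 and 0.11 for Elavl3, all below the median. The range of Khdrbs1 follows from the value by which it was chosen and is a description.

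**Figure D5:**
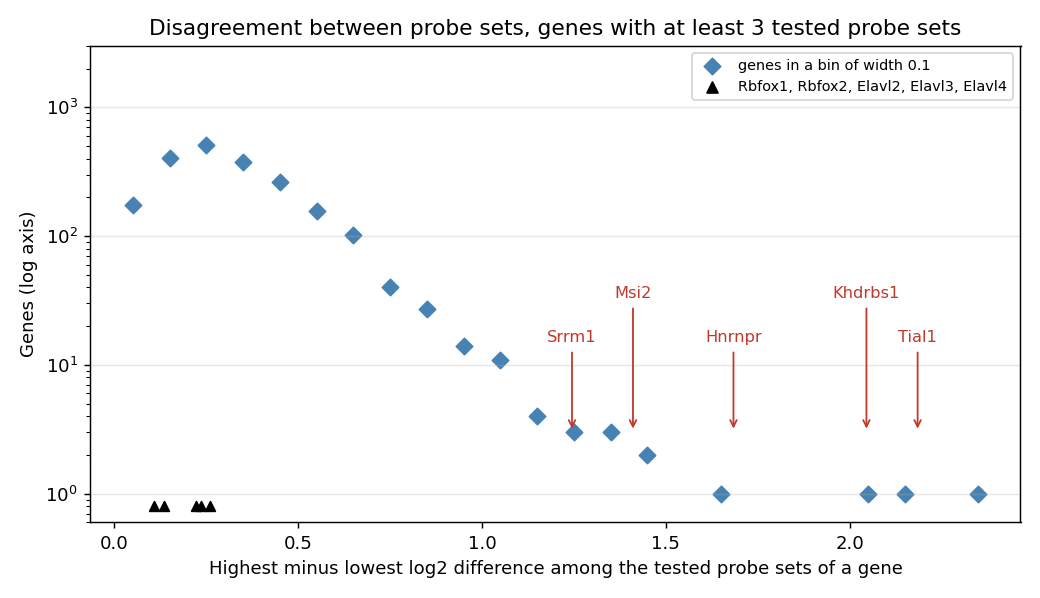
Number of genes (y axis, log) by the range of log2 differences among their tested probe sets (x axis), for the 2096 genes with at least 3, with diamonds for bins of width 0.1. Arrows mark Tial1 (2.19), Khdrbs1 (2.05), Hnrnpr (1.68), Msi2 (1.41) and Srrm1 (1.24), and triangles mark Rbfox1, Rbfox2, Elavl2, Elavl3 and Elavl4, between 0.11 and 0.26.

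Cell type markers were read beside these values, as the sum of signals over a list with the brightest probe set of each gene. The 10 neuron markers, led by Snap25 and Syt1, summed to between 31891 and 34427 in the double-knockout-labelled arrays and between 26200.2 and 32453 in wild type, and 6 of 10 were higher. The 7 cortical projection neuron markers with probe sets, led by Slc17a7 and Cux2, summed to 4061 to 4342 in the double-knockout-labelled arrays and 3025 to 4545 in wild type, and 5 of 7 were higher. The 12 microglia markers, led by Csf1r and Ctss, summed to 3086 to 4047 in the double-knockout-labelled arrays and 4118 to 4994 in wild type, and all 11 tested were lower. Endothelial and mural markers, led by Rgs5 and Vtn, summed to 1610.5 to 1886 in the double-knockout-labelled arrays and 2051 to 2412 in wild type, and 6 of 8 were lower. Oligodendrocyte markers, led by Mbp and Cnp, summed to 21197 to 24241 in the double-knockout-labelled arrays and 19004 to 21023 in wild type, and 5 of 9 were higher. Astrocyte markers, led by Slc1a2 and Aldoc, summed to 17225 to 17233 in the double-knockout-labelled arrays and 15027 to 18155 in wild type, with 5 of 9 lower, and Aqp4, the water channel of astrocyte endfeet, fell on 3 probe sets (log2 -0.96 at the brightest, limma adjusted p = 0.0139). Choroid plexus markers, led by Ttr and Kcnj13, summed to 147 to 4852 in the double-knockout-labelled arrays and 198 to 11192 in wild type, highest in double knockout replicate 1 and wild type replicate 3, and all 4 tested were lower. No marker was under 1 in all arrays. The part of these cell types in the values of the 10 genes was not tested.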

How the data were processed

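Per the file's values, the deposited table holds probe set intensity signals on a linear scale, summarised per probe set. The mean of each array, with 2% trimmed at each end, was 150.001, so the deposited arrays had been scaled to a common level. The table had 0 columns of other samples. Software, settings and build are not given in the sources used here. Groups were taken from the descriptions. Older platform symbols were replaced through their gene numbers in a RefSeq table (GRCm38.p6), and a probe set was named only where it had 1 symbol. The 10 genes, the lists and the tests were chosen with earlier results of these data known.

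Signals under 1 were set to 1 and log2(signal + 16) was taken, and 64 control probe sets were left out. The 22518 probe sets with a mean log2 signal above the median of all 45037 were tested in R 4.3.3 by limma 3.58.1 (a group term alone in lmFit, an intensity trend in eBayes, Benjamini-Hochberg adjustment over all tested). The step was tested on simulated data. The number of arrays limits the precision. No exact permutation test was run, since with 3 arrays a group its smallest two-sided p is 0.1. All 32 probe sets of the 10 genes are named. From the other lists the text names genes past the threshold, or else the 2 with the smallest p, and for marker lists the 2 brightest. The 6 most alike probe sets are named by Pearson's r. Alternatives were no filter, pseudocounts of 1 and 64, array medians shifted to a common value, quantile normalization, a filter at the 75% quantile, no intensity trend, array weights, each array left out, the replicate number as a block, and the omission of wild type replicate 1 with double knockout replicate 2. Figures were drawn with matplotlib 3.10.9.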

Additional observations from a re-analysis of the deposited data

How the results depend on the processing

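The count of 229 probe sets past the threshold became 10 with no filter, 131 with no intensity trend and 12 with wild type replicate 1 and double knockout replicate 2 both left out, and 34 to 292 with 1 array left out. The 1 passing probe set of the 10 genes was lost only with no filter, where 0 of 32 passed in limma. The 3 passing probe sets of other splicing genes became 0 with no filter, 1 with the filter at the 75% quantile and 0 with both of those arrays left out, and 0 to 5 with 1 array left out. The median log2 difference of the 10 genes lay between -0.13 and -0.05 (-0.051 without double knockout replicate 1) with 1 array left out. The gap between Khdrbs1 1438462_x_at and its other probe sets moved by less than 1 SD between arrays in all 16 alternatives. Of 487 values of single probe sets under the alternatives, 19 lost the threshold, 2 moved by more than the spread between arrays and 466 did neither. The groups share replicate numbers, but deviations of same-numbered arrays correlated at -0.15, 0.0013 and -0.10, and no array correlated best with its own number. With the replicate block 182 probe sets passed, among them 1 of the 10 genes. The number of arrays and the dim signals of several probe sets limit these comparisons.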

Other observations

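Of the 10 genes with the widest range of log2 differences among 2096 with at least 3 tested probe sets, 5 were on the splicing lists, namely Tial1, Khdrbs1, Hnrnpr, Msi2 and Srrm1, while 51 of the 2096 (2.43%) were. Khdrbs1 was itself chosen for its fallen probe set, the lists were made with earlier results known, and the count was not tested. Among the 5 named genes, Khdrbs1, Hnrnpr and Srrm1 lie on chromosome 4, where Elavl2 and Elavl4 lie too. Tial1 lies on chromosome 7 and Msi2 on chromosome 11. How many of the 2096 genes lie on chromosome 4 was not counted, so nothing is read from these positions. The labels give no strain, and a part of chromosomal position in these ranges was not tested. A range over 1 was found in 6 of the 51 splicing genes (11.8%), among them Rbm39 with 12 tested probe sets, and in 27 of all 2096 (1.29%). The splicing genes had more tested probe sets (a median of 4 against 3), which widens a range. Among the 800 genes with at least 4, the median range was 0.43 for 37 splicing genes and 0.37 for all.

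The widest range belonged to Riok3, a kinase of ribosome assembly. Riok3 1460670_at read 276, 53.5 and 69.3 in the double-knockout-labelled arrays, against 225, 411 and 419 in wild type (log2 -1.56, SE 0.46, limma adjusted p = 0.138). Riok3 1422650_a_at read 376, 518 and 561 in the double-knockout-labelled arrays, against 347, 244 and 227 in wild type (log2 0.80, SE 0.18, limma adjusted p = 0.0763). In both, double knockout replicate 1 lay nearest to wild type replicate 1. Ptp4a2, a phosphatase, rose at 1435129_at, with 897, 726 and 933 in the double-knockout-labelled arrays, against 396, 460.5 and 383 in wild type (log2 1.01, SE 0.12, limma adjusted p = 0.00913). Ptp4a2 1420613_at read 702, 790.2 and 681 in the double-knockout-labelled arrays, against 875, 1042 and 1155 in wild type (log2 -0.48, SE 0.12, limma adjusted p = 0.0984). These 2 genes are on no list here and were named after their values were seen. Ptp4a2 lies on chromosome 4, and Riok3 on chromosome 18, as the targeted Egr1 does. The targeted Egr3 lies on chromosome 14.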
